A study of Homo sapiens with 22 samples.

Results

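The protein-coding genes of the cytosolic ribosome were followed through drug-induced stress of the endoplasmic reticulum (ER) in LN308 cells. Members were chosen by symbol alone, as RPL or RPS with a number and an optional A, X or L, as RPLP or RPSP with a digit, or as RPSA. The rule found 81 of the 58278 gene entries of the files, 49 of the large and 32 of the small ribosomal subunit. It takes in the paralogs RPL3L, RPL10L, RPL39L and RPS27L, and it leaves out ribosomal proteins with other names, such as RACK1.

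A ribosome carries 1 copy of most of these proteins, and cells keep their mRNAs abundant and match their output to growth. In vertebrates these mRNAs usually begin with a C and a run of pyrimidines, the 5′ terminal oligopyrimidine (TOP) motif. Through it the kinase mTOR and the RNA-binding protein LARP1 set how much of the mRNA is translated. Blocked folding in the ER activates the unfolded protein response, which lowers translation of most mRNAs through phosphorylation of the initiation factor eIF2.

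LN308 is an established human glial line derived from an astrocytoma. Cells were untreated (0 h), given tunicamycin at 2.5 µg/ml for 2 h or 6 h, or given thapsigargin at 200 nM for 2 h or 6 h. Tunicamycin blocks N-linked glycosylation, and thapsigargin blocks the SERCA calcium pump of the ER. RNA-Seq measured RNA, and Ribo-Seq measured fragments of 27 to 33 nt protected by ribosomes in cells given cycloheximide at 0.1 mg/ml for 5 min, called footprints here. Each assay had 3 libraries of untreated cells, 3 of each tunicamycin time and 1 of each thapsigargin time, 22 in all. The protocol names DMSO as the control, whereas the 0 h libraries are labelled untreated, and no vehicle library at the later times was part of the comparisons. No label states that replicates came from different cultures, and the p-values therefore cover only the scatter among these libraries, which may be technical.

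RNA-Seq libraries held 101 to 167 M (mega) counts and Ribo-Seq libraries 4.39 to 29.2 M. HSPA5, the gene of the BiP chaperone, rose in RNA by 3.67 ± 0.518 (log2 fold change ± SE) at 6 h of tunicamycin (edgeR quasi-likelihood test, adjusted p = 0.00782). The astrocyte gene GFAP was low, at 0.678 to 3.38 CPM in RNA (counts scaled to library size by TMM, the trimmed mean of M-values), and it rose by 1.15 ± 0.246 at 6 h (adjusted p = 0.0493). It was the single call among 12 glial markers, whose median lay at -0.97 in RNA, beside -0.27 for all genes, and at -0.63 in footprints (11 tested). The part of these markers in the results at 6 h was not tested. No marker of the glial, neuron, blood or epithelial lists was at 0 in every RNA-Seq library. The epithelial keratin KRT18 was at 41.3 to 120.2 CPM in RNA, EPCAM at no more than 0.740 and the blood marker PTPRC at no more than 1.18.

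The replicate 1 libraries and both thapsigargin libraries stood apart from replicates 2 and 3. In RNA-Seq the thapsigargin libraries are also labelled replicate 1, and in Ribo-Seq their labels give no replicate number. Ribosomal proteins took 2.61 to 3.81% of all RNA-Seq counts in those 5 libraries and 1.97 to 2.32% in the other 6. In Ribo-Seq the shares were 1.51 to 2.28% and 1.02 to 1.24%. RNA-Seq untreated replicate 1 also had a TMM factor of 1.46, beside 0.904 to 1.06 elsewhere in RNA-Seq, and counts on 53489 genes, beside 38264 to 40331. The summed RNA CPM of the glial markers was 1514 to 3393 in the 5 libraries and 3577 to 4404 in the other 6, with 1 of 12 genes lower without overlap. The ranges were 88.4 to 212 and 99.4 to 141 for 6 neuron markers, 0.791 to 3.12 and 1.20 to 1.61 for 7 blood markers, and 55.7 to 138 and 58.4 to 95.0 for 5 epithelial markers. Without overlap, 2 epithelial markers were higher in the 5 libraries, 1 blood marker was lower, and 0 neuron markers were either. Their part in the split was not tested.

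The annotated starts show how the TOP motif is spread over the family. They are 30-base windows from 10 bases before the start, read from the RefSeq promoter table (GRCh38.p14), which held 64 of the 81 members. Capitals mark a C and the pyrimidines that follow it at the start. RPS27 and RPSA had the highest footprint values at 2 h of tunicamycin, RPL39 one of the lowest, and RPL26 was among the highest at 6 h. RPS27 lies at chr1:153990752-153990781 (+), RPSA at chr3:39406710-39406739 (+), RPL39 at chrX:119791611-119791640 (-) and RPL26 at chr17:8383174-8383203 (-).
RPS27: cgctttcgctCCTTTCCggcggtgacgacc
RPSA: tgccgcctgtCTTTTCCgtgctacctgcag
RPL39: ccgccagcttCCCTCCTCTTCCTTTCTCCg
RPL26: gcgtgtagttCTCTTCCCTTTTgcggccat

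RPL10 has 3 listed starts, and the one at chrX:154398367-154398396 (+) has such a run. It is shown because RPL10 RNA was higher at 6 h than at 2 h in every replicate.
RPL10: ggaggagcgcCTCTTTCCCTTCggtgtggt

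The next 3 members had lower RNA at 6 h once replicate 1 was left out. None has a run at its annotated start, and capitals mark the longest run in the window. Of the 6 members that rose between 2 h and 6 h in the same fit, RPL10, RPL26 and RPL34 have a run at a listed start. RPL3, RPL4 and RPL17 have none exactly there. The longest run in the RPL4 window has 12 bases and begins 5 bases after the start. That of RPL3 has 5 bases from 1 base before the start, and that of RPL17 has 4 bases from 8 bases before it. RPS15 lies at chr19:1438386-1438415 (+), RPS26 at chr12:56041908-56041937 (+) and RPS27L at chr15:63157458-63157487 (-).
RPS15: aggcgcggaccaaagcgatCTCTTCTgagg
RPS26: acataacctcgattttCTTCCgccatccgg
RPS27L: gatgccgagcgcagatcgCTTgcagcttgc

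Of the 64 members in that table, 46 (71.9%) had a C followed by at least 4 pyrimidines (C or T) exactly at an annotated start, beside 4.99% of 27241 other genes. Only the strand of the gene was searched, and a gene with several starts counted if any start had the run. The share was 71.8% of 39 large subunit members and 72.0% of 25 small subunit members. A run of at least 8 bases that began within 20 bases of the start was present in 81.2% of members and 18.4% of other genes. A match describes letters, not the start used in LN308 cells.

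Many members differed between the 5 libraries that stood apart and the other 6. That split was described above with the members' own share of counts, so the counts of members partly restate it. In RNA-Seq, 78 members had a mean of at least 50 counts. Of these, 43 had higher CPM in each of the 5 replicate 1 and thapsigargin libraries than in any of the other 6, beside 5.68% of genes with that mean, and 2 were lower, beside 10.3%. In Ribo-Seq 22 of 75 were higher (2.16% of genes) and 0 lower (3.63%). The log2 CPM of the members correlated at 0.994 to 0.999 among RNA-Seq libraries of replicates 2 and 3 and at 0.911 to 0.941 between the sets, a description over 78 genes that share libraries.

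RPS27, a zinc finger protein of the small subunit, was at 489, 166 and 155 RNA CPM in untreated replicates 1, 2 and 3. It was at 635, 161 and 141 after 2 h and 566, 167 and 146 after 6 h of tunicamycin, and at 503 and 616 after 2 h and 6 h of thapsigargin. The 5 libraries lay far above the other 6, with a ratio of means of 3.60, and treated and untreated groups overlapped. RPL41, the smallest ribosomal protein, and RPL11, which binds 5S rRNA, had ratios of 3.18 and 3.05. RPS16, whose tail reaches the peptidyl site, went the other way with a ratio of 0.442: it was at 154, 378 and 368 CPM in untreated replicates 1, 2 and 3.

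**Figure D1:**
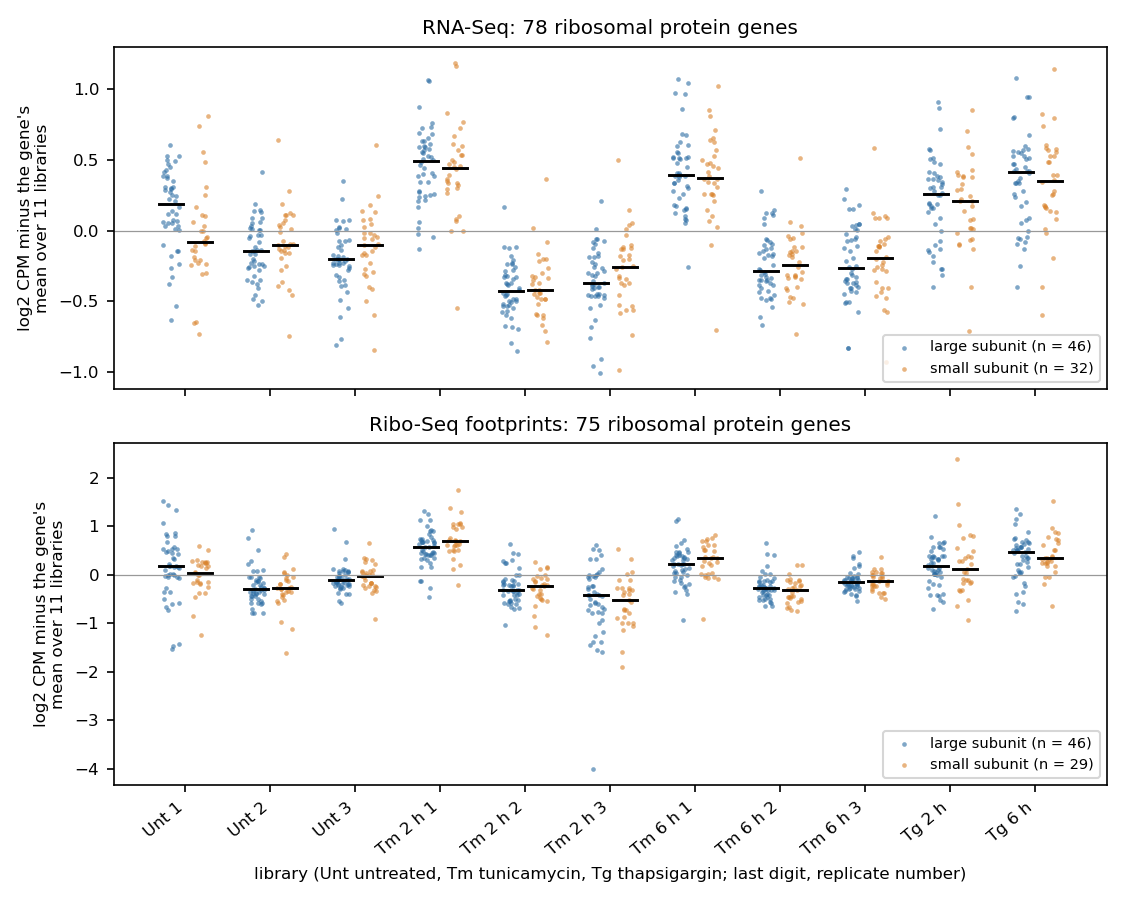
Each point is 1 ribosomal protein gene, plotted as log2 CPM minus that gene's mean over the 11 libraries of an assay, with large subunit genes in blue, small subunit genes in orange and black bars for medians. Medians of the replicate 1 and thapsigargin libraries ran from 0.06 to 0.46 in RNA-Seq, above those of replicates 2 and 3 (-0.42 to -0.12), and RNA-Seq untreated replicate 1 had the widest gap between large (0.19) and small (-0.08) subunit medians.

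The balance of the subunits was steadier than the total. Large subunit genes together had 1.37 to 1.46 times the RNA counts of small subunit genes in 10 RNA-Seq libraries and 1.60 times in untreated replicate 1. In footprints the ratio was 1.18 to 1.39. By group it was 1.46 ± 0.119 (SD, n = 3) in untreated RNA, 1.41 ± 0.0345 after 2 h and 1.45 ± 0.00680 after 6 h of tunicamycin. In footprints it was 1.29 ± 0.0748, 1.26 ± 0.0875 and 1.25 ± 0.0673. These differences lay within the spread of untreated libraries.

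No ribosomal protein gene changed in RNA under tunicamycin by edgeR's quasi-likelihood test at an adjusted p under 0.05. At 2 h the test called 0 of 80 members (0.00973% of all 41130 genes tested), with 0 at an unadjusted p under 0.05 (8.06% of genes). At 6 h it called 0 (1.5% of genes), with 0 at the unadjusted threshold (17.4%). Between 6 h and 2 h it called 0 (0.742%), with 0 unadjusted (9.75%). DESeq2 called 0 members in each of the 3. The smallest adjusted p-values of a member were 0.580, 0.342 and 0.668. Median log2 fold changes of members were 0.01, 0.08 and 0.06, beside -0.17, -0.27 and 0.00 for all genes. Large and small subunit medians were 0.00 and 0.01 at 2 h, 0.08 and 0.08 at 6 h, and 0.05 and 0.07 between the times. Scaled to library size alone, without TMM, the 6 h median turned to -0.25, the 2 h median to -0.21 and that between the times to -0.04.

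Footprints of the members did not pass the test either. At 2 h edgeR called 0 of 79 members (0% of 19411 genes), with 0 at an unadjusted p under 0.05 (3.19%). At 6 h it called 0 (0.84%), with 0 unadjusted (12.1%), and between the times 0 (0.752%), with 0 unadjusted (10%). DESeq2 called 0 in each. Member medians were 0.16, -0.02 and -0.09, beside -0.02, -0.07 and -0.04 for all genes. Large and small subunit medians were 0.13 and 0.18 at 2 h and -0.03 and 0.07 at 6 h.

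Translational efficiency is the footprint change beyond the RNA change, fitted in 1 edgeR model of both assays. It gave 0 calls among 79 members at 2 h (0% of 18500 genes), at 6 h (0%) and between the times (0%), and DESeq2 called 0 in each. At an unadjusted p under 0.05 there were 0 members at 2 h (4% of genes), 1 at 6 h (3.82%) and 1 between the times (2.32%). Both times it was RPS28, a small subunit protein near the mRNA exit, at -0.85 ± 0.345 and -0.87 ± 0.349, with a mean of only 35.7 footprint counts in a library. Member medians were 0.28, 0.08 and -0.21, beside -0.02, -0.08 and -0.05 for all genes. The 2 h median was 0.04 with replicates 2 and 3 alone and -0.11 without the Ribo-Seq library of 2 h replicate 1.

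Within replicate numbers the RNA at 2 h had a common direction in replicates 2 and 3 only. All 78 members with a mean of at least 50 counts were lower at 2 h of tunicamycin than untreated in both, beside 38% of such genes. Member medians of the log2 change were -0.29 and -0.14, beside -0.02 and 0.00 for all genes. In replicate 1 the median was 0.37, with 72 members higher, and that of all genes 0.30. The direction in replicate 1 turned with the scaling: as a share of all counts, members went from 3.81 to 3.25% in replicate 1, from 2.32 to 1.99% in replicate 2 and from 2.17 to 1.97% in replicate 3. Large and small subunit medians were -0.27 and -0.31 in replicate 2 and -0.14 and -0.14 in replicate 3. In bulk RNA, fewer cells of a kind and less RNA in each cell cannot be told apart.

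By 6 h the members of replicates 2 and 3 lay nearer to their untreated level. RNA medians were -0.12 (71 of 78 lower) and -0.05 (50 lower), beside -0.04 and -0.04 for all genes. Below these medians of all genes lay 63 members in replicate 2 and 41 in replicate 3. The member median of replicate 1 was 0.35, beside 0.34 for all genes. Between 6 h and 2 h, 65 of 78 members were higher in both replicates 2 and 3, beside 41.3% of genes, with medians of 0.15 and 0.10. In replicate 1 the median was -0.04, with 48 lower, beside -0.01 for all genes. Both comparisons use the same 2 h libraries. The thapsigargin libraries had a median of 0.15 between 6 h and 2 h, with 68 of 78 higher, beside -0.06 for all genes.

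Footprints had no such common step. At 2 h the member medians were 0.52, 0.01 and -0.32 in replicates 1, 2 and 3, beside -0.04, 0.01 and -0.10 for all genes. Lower in both replicates 2 and 3 were 30 of 75 members, beside 29.8% of genes. Between 6 h and 2 h the medians were -0.34, 0.00 and 0.28, and 27 members were higher in both replicates 2 and 3, beside 34.8% of genes. The 2 h library of replicate 3 was the shallowest, at 4.39 M counts, and its change had an SD over members of 0.696, beside 0.614 in replicate 1, whose libraries were both deeper, and 0.183 in replicate 2.

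**Figure D2:**
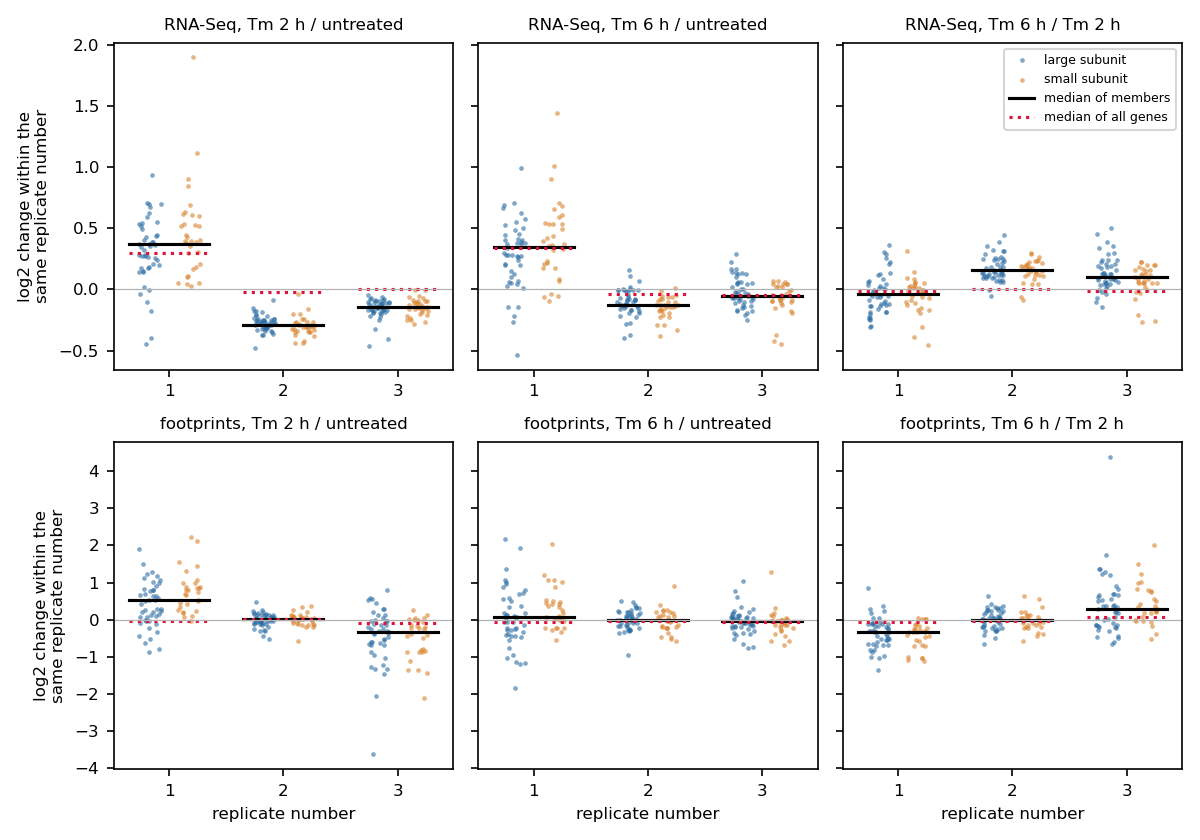
Log2 change of each ribosomal protein gene between libraries of the same replicate number, for RNA-Seq (top) and footprints (bottom), with large subunit genes in blue, small subunit genes in orange, black bars for member medians and red dotted bars for the medians of all genes that average 50 counts or more. At 2 h the RNA medians were 0.37, -0.29 and -0.14 in replicates 1, 2 and 3, with every member below 0 in replicates 2 and 3.

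With replicate 1 left out, which leaves 2 libraries a group, edgeR called some members in RNA. At 6 h against untreated, 3 of 79 fell, while 19.4% of all genes were called. RPS26, near the mRNA exit, fell by 0.39 ± 0.0947 (adjusted p = 0.0188), RPS27L by 0.33 ± 0.0918 (0.0310) and RPS15, near the decoding site, by 0.33 ± 0.0918 (0.0337). RPS26 was at 78.3, 95.3 and 90.7 CPM untreated and 118, 73.1 and 66.6 at 6 h in replicates 1, 2 and 3. RPS15 was at 161, 201 and 194 CPM untreated and 186, 160.3 and 149 at 6 h. Both genes were higher at 6 h in replicate 1 and lower in the other two, so the groups overlapped. Over all 3 replicates the values were -0.03 ± 0.321 for RPS26 and -0.17 ± 0.225 for RPS15.

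Between 6 h and 2 h, 6 of 79 members rose in replicates 2 and 3, all of the large subunit, while 25.1% of all genes were called. RPL10, which joins late in assembly near the tRNA sites, rose by 0.42 ± 0.0977 (adjusted p = 0.0121). RPL26 and RPL17, both at the rim of the exit tunnel, rose by 0.43 ± 0.102 (0.0131) and 0.43 ± 0.126 (0.0320). Of the RNA-Seq counts on RPL17 and its pseudogenes, 64.3% lay on the pseudogenes. RPL3, at the peptidyl transferase centre, rose by 0.33 ± 0.0925 (0.0259), RPL34 by 0.34 ± 0.100 (0.0337), and RPL4, which lines the tunnel, by 0.31 ± 0.0958 (0.0408). In the same fit at 2 h against untreated 0 members were called by edgeR, with a smallest adjusted p of 0.0641, while 4.4% of all genes were called.

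RPL10 was at 385, 426 and 414 RNA CPM untreated, 427, 348 and 389 at 2 h and 510.3, 475 and 507 at 6 h, and every 6 h library lay above every 2 h library. RPL3 was at 727, 699.6 and 666 untreated, 676, 604 and 615 at 2 h and 836, 753 and 778 at 6 h, again with no overlap between 2 h and 6 h. How many genes lack overlap between these groups is not given here. With each same-numbered pair centred on the median of all genes, 66.7% of genes had 1 sign over the 3 pairs. Within numbers RPL10 was higher at 6 h by 0.26, 0.45 and 0.38, RPL26 by 0.36, 0.36 and 0.50 and RPL17 by 0.29, 0.39 and 0.46. Over all 3 replicates the values were 0.36 ± 0.199 for RPL10, 0.32 ± 0.199 for RPL3, 0.38 ± 0.260 for RPL17 and 0.39 ± 0.552 for RPL26, none of them called.

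Some members lay on 1 side of the family median in all 3 replicate numbers. With the member median of each pair taken off, RPL10 RNA lay 0.30, 0.29 and 0.28 above it between 6 h and 2 h in replicates 1, 2 and 3. RPL17 lay 0.33, 0.23 and 0.35 above. RPS27L (-0.42, -0.24 and -0.37), RPS15 (-0.35, -0.22 and -0.36) and RPL7A (-0.27, -0.21 and -0.25) lay below. In all, 50 of 78 members had 1 sign over the 3 pairs between 6 h and 2 h, beside 66.7% of genes centred on their own median. At 6 h against untreated 28 had 1 sign, beside 54.7% of genes, and at 2 h against untreated 17, beside 29.4%. In none of the 3 comparisons was the share larger among members than among all genes. The centring and the within-number changes were chosen after seeing the data and carry no test.

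Members were ranked by fitted value only where they had a mean of at least 50 counts, for efficiency in both assays. Over all 3 replicates, RNA values at 2 h were among the lowest for RPL13 (-0.28 ± 0.216) and RPL13A (-0.19 ± 0.266), and highest for RPSA (0.25 ± 0.289), RPL41 (0.32 ± 0.635) and RPS27L (0.65 ± 0.451). At 6 h RPL41 (0.36 ± 0.635), RPS12 (0.33 ± 0.450) and RPL12 (0.33 ± 0.518) were highest, and RPL7A (-0.20 ± 0.265) and RPS15 were among the lowest. None passed the test.

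RPS27 had the highest footprint value at both times. It was at 35.7, 13.2 and 21.5 footprint CPM in untreated replicates 1, 2 and 3, at 105, 16.9 and 18.3 after 2 h and at 65.3, 24.9 and 52.1 after 6 h of tunicamycin. At 6 h it was above untreated in each number, by 0.87, 0.92 and 1.28, but the groups overlapped, since untreated replicate 1 lay above 6 h replicate 2. The fitted value was 1.01 ± 0.758 (edgeR, adjusted p = 0.663), beside 0.12 ± 0.712 in RNA. In efficiency RPS27 was also highest of the members with at least 50 counts on average, at 1.04 ± 1.14 at 2 h, followed by RPSA (0.86 ± 0.868), and at 1.11 ± 1.14 at 6 h, followed by RPS26 (0.65 ± 0.609) and RPL26 (0.63 ± 0.826). RPL9 was lowest of these at both times, at -0.68 ± 0.592 and -0.59 ± 0.592. Of the members with fewer counts, RPL3L lay above RPS27 at 2 h (1.46 ± 1.60), RPS3A below RPL9 at 2 h (-0.81 ± 0.519) and RPS28 below it at 6 h.

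RPSA, the laminin receptor protein of the small subunit, had 89.6, 53.9 and 99.5 footprint CPM untreated, 389, 55.5 and 38.5 at 2 h and 189, 70.8 and 90.3 at 6 h. Only replicate 1 was clearly higher at 2 h, and the fitted value was 0.99 ± 0.855. RPL39, a small protein of the exit tunnel, was at 35.9, 23.5 and 9.49 untreated and 20.7, 19.4 and 0.721 at 2 h (-0.73 ± 0.858), lower in each number with overlapping groups. The 0.721 CPM came from few reads of the shallowest library, at 4.39 M counts. It lay at -4.01 from the gene's mean log2 CPM. RPL9 (-0.80 ± 0.490) and RPL34 (-0.58 ± 0.764) were the other lowest members of at least 50 counts at 2 h, RPS3A with fewer counts was at -0.93 ± 0.632, and RPS24 (0.56 ± 0.615) followed RPS27 and RPSA at the top. At 6 h RPL26 (0.75 ± 0.509) and RPL41 (0.54 ± 0.442) followed RPS27.

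RPL23A, a docking site at the tunnel exit, had the lowest footprint value at 6 h among members with at least 50 counts on average, both against untreated (-0.84 ± 0.453) and against 2 h (-0.87 ± 0.455). It was at 6.30, 9.05 and 5.50 footprint CPM untreated, 7.24, 7.35 and 6.73 at 2 h and 2.78, 4.62 and 4.23 at 6 h. The 6 h libraries lay below all others of untreated and 2 h cells, yet the adjusted p-values were 0.495 and 0.552 by edgeR. How many genes separate in this way is not given here. Most footprints of this gene and its pseudogenes lay on the pseudogenes. With fewer counts, RPS28 was at -1.08 ± 0.570 against untreated, and RPL3L at -1.26 ± 1.72 and RPS10 at -0.96 ± 0.931 against 2 h. RPS29 (-0.51 ± 0.407) and RPSA (-0.47 ± 0.849) came next between 6 h and 2 h, and RPL26 (0.48 ± 0.508), RPL7 (0.43 ± 0.586) and RPL3 (0.32 ± 0.286) were highest.

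Over all 3 replicates the groups of members by role held 0 calls under tunicamycin. RPLP0, RPLP1 and RPLP2 form the stalk that recruits elongation factors, and their RNA values at 6 h were 0.27 ± 0.282, 0.19 ± 0.223 and -0.06 ± 0.223. RPLP0 was at 726, 725 and 696 RNA CPM untreated, 1062, 599 and 656 at 2 h and 1116, 717 and 759 at 6 h. Its 2 h libraries lay on both sides of the untreated ones. Footprint values of the stalk at 6 h were 0.25 ± 0.297, 0.33 ± 0.402 and -0.15 ± 0.314. With the family median taken off, the stalk's median footprint change within numbers at 6 h was 0.60, -0.09 and 0.12 in replicates 1, 2 and 3.

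RPL5 and RPL11, which form a particle with 5S rRNA, had RNA values of 0.18 ± 0.342 and 0.22 ± 0.627 at 6 h and footprint values of 0.13 ± 0.498 and -0.07 ± 0.341. RPL11 was at 450.1, 216 and 184 RNA CPM untreated and 612, 204 and 175 at 6 h, higher in replicate 1 and lower in replicates 2 and 3. The 8 members around the exit tunnel (RPL4, RPL17, RPL22, RPL23A, RPL26, RPL31, RPL35 and RPL39) had median within-number RNA changes of 0.32, -0.30 and -0.17 at 2 h, near the whole family's 0.37, -0.29 and -0.14. RPL22 was at 0.18 ± 0.339 in RNA and -0.04 ± 0.594 in footprints at 6 h.

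RPS2, RPS3, RPS10 and RPS20 are small subunit proteins that receive ubiquitin when ribosomes stall. Their RNA values at 6 h were 0.08 ± 0.239, 0.03 ± 0.205, 0.05 ± 0.267 and 0.17 ± 0.294, and their footprint values -0.40 ± 0.307, -0.11 ± 0.360, -0.40 ± 0.931 and 0.20 ± 0.385. RPS2 footprints were 72.1, 120.1 and 118 CPM untreated and 49.7, 94.4 and 89.8 at 6 h. They were lower at 6 h in each number, with changes of -0.54, -0.35 and -0.39 on the log2 scale, with overlapping groups. The median footprint change of RPS2, RPS3 and RPS20 at 6 h lay at -0.37, -0.35 and -0.09 from the family median, which was not tested. It was the value of a different gene in each number, and the genes did not move together. As log2 CPM minus the gene's mean, RPS20 went from -0.46 untreated to 0.61 at 6 h in replicate 1. RPS3 went from -0.57 to -0.48 in replicate 2.

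RPS6, a target of S6 kinase downstream of mTOR, was at 694, 673 and 612 RNA CPM untreated and 1004, 616 and 631 at 6 h. Its footprints were 478, 336 and 411 CPM untreated and 479, 360.4 and 372 at 6 h. The footprint groups overlapped, with a fitted value of -0.02 ± 0.308. RPS27A, made as a fusion with ubiquitin, was at 0.30 ± 0.377 in RNA and -0.33 ± 0.423 in footprints.

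Of the paralogs, RPS27L had the most reads. RPS27L is a close copy of RPS27. It was at 53.5, 81.2 and 85.6 RNA CPM untreated, 199, 70.4 and 76.8 at 2 h and 145, 66.3 and 63.8 at 6 h, and at 108 and 101 with thapsigargin. Replicate 1 was higher under tunicamycin and replicates 2 and 3 were lower, so the fitted values of 0.65 ± 0.451 at 2 h and 0.32 ± 0.450 at 6 h rest on replicate 1. Its footprints were 88.6, 97.1 and 104 CPM untreated and 179, 85.1 and 101 at 6 h. RPL3L, the muscle form of RPL3, had 7 to 118 RNA-Seq counts in a library and RPL39L 0 to 36, with the highest of both in untreated replicate 1. RPL10L had 0 to 4 and was not tested. In Ribo-Seq the 3 had 0 to 15, 0 to 3 and 0 to 9 counts, and RPL39L and RPL10L were not tested.

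**Figure D3:**
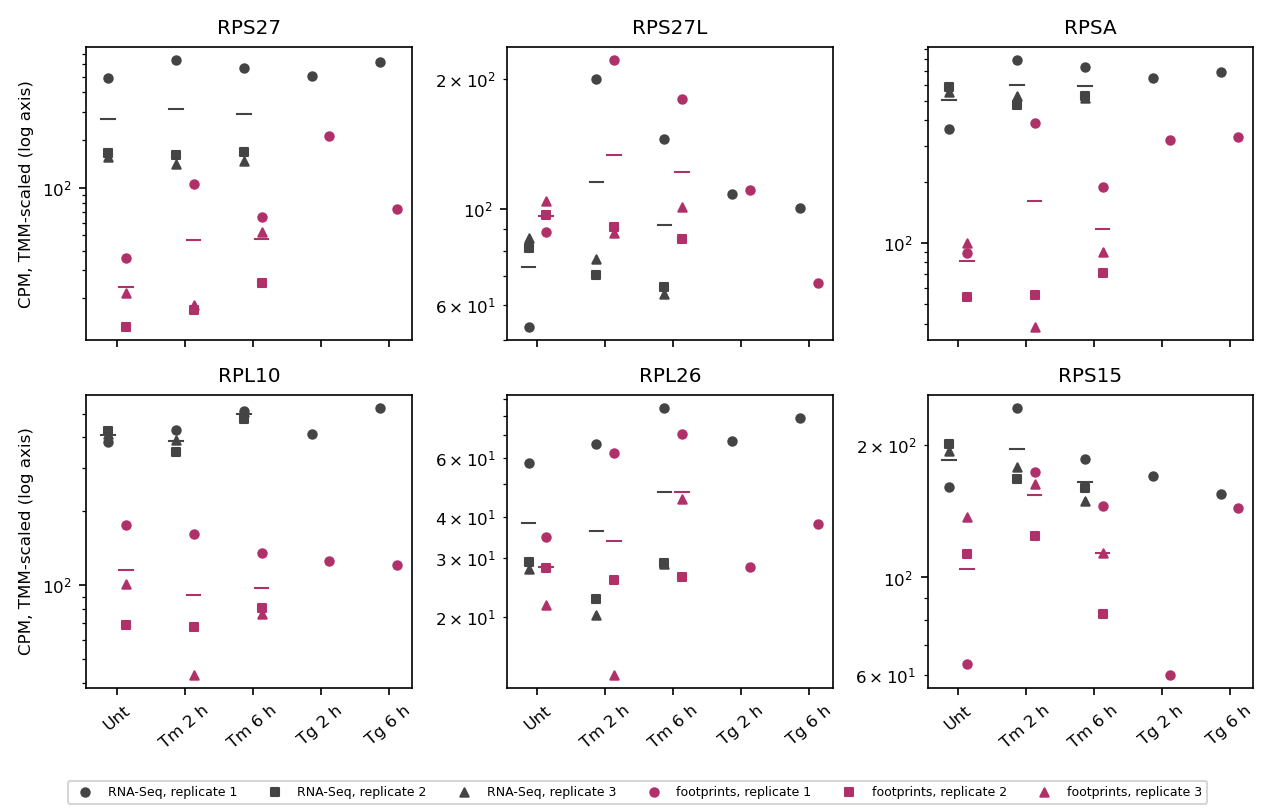
CPM on a log axis for 6 members in untreated (Unt), tunicamycin (Tm) and thapsigargin (Tg) libraries, with RNA-Seq in grey, footprints in magenta, marker shape for the replicate number and bars for means of 3 libraries. RPL10 RNA at 6 h of tunicamycin lay above 2 h in every replicate, and RPS27 RNA was at 489 CPM in untreated replicate 1 and 166 and 155 in the other two.

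Footprints per RNA were low for the family and unequal within it. Over 75 members with a mean of at least 50 counts in each assay, the untreated log2 ratio of footprint CPM to RNA CPM had a median of -0.93, beside 0.09 over 11176 such genes, and 60 members lay below the latter. In untreated replicates 1, 2 and 3 the member median minus that of all genes was -1.24, -1.21 and -1.02. It was -0.87 at 2 h and -0.995 at 6 h of tunicamycin, and -0.96 and -1.07 with thapsigargin. Ratios in untreated cells correlated with those at 2 h of tunicamycin at r = 0.985, at 6 h at r = 0.983 and at 6 h of thapsigargin at r = 0.922, a description over members whose ratios span a wide range, which alone gives a high r. Large subunit members had a median of -1.08 and small subunit members -0.92. The large minus small difference was -0.15, -0.26 and -0.69 in the 3 untreated replicates.

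Ratios ran from -6.03 for RPL7 to 1.51 for RPL30. RPL21 (-5.20), RPS7 (-4.24) and RPS26 (-4.05) were also among the lowest. RPS21 (1.07), RPL11 (0.92), RPL17 (0.92) and RPS23 (0.77) came after RPL30 at the top. RPL7 had 364, 384 and 373 RNA CPM untreated but 1.79, 4.92 and 10.2 footprint CPM. RPS21 had 283, 381 and 396 RNA CPM and 736, 649 and 849 footprint CPM. In each replicate RPS21 had more footprint CPM than RNA CPM, and RPL7 had far less.

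Across members, counts on pseudogenes went with lower ratios, but some low ratios had a modest pseudogene share. Processed pseudogenes are genomic copies of an mRNA that short reads may match equally well, and the files list 1587 named after 77 of the members. Of all counts on RPL7 and its named pseudogenes, the pseudogenes had 75.7% of footprints and 3.77% of RNA-Seq counts. For RPL21 they had 84.5% of footprints and 9.43% of RNA-Seq counts, for RPS26 68.1% of footprints and 5.29% of RNA-Seq counts, and for RPL23A 74.9% of footprints and 24.3% of RNA-Seq counts. For RPL30 they had 0.889% of footprints and 0.919% of RNA-Seq counts, and RPS27L has no named pseudogene. For RPL17, whose ratio of 0.92 was among the highest, they had 46.8% of footprints and a larger 64.3% of RNA-Seq counts. The 33 members with 0 to 9 named pseudogenes had a median ratio of -0.41, and the 17 with 30 to 133 one of -2.43. Over 75 members the ratio and the pseudogene share of footprints had r = -0.632 and a Spearman rho of -0.773, with both built on the same footprint counts, a description. RPL41 had a low ratio (-2.65) with 3 named pseudogenes and 2.03% of footprints on them. RPS7, RPS27A and RPS27 had ratios of -4.24, -3.93 and -3.52 with 27.4, 16.5 and 14.1% of footprints on pseudogenes. How much of the low ratios the pseudogene counts account for was not tested.

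How reads with several matches were counted is not stated, so levels and ratios of such members are uncertain. RPS10, RPL17 and RPL36A may be uncertain also for another reason. Their readthrough genes RPS10-NUDT3, RPL17-C18orf32 and RPL36A-HNRNPH2 were at 0 counts in every library. How reads shared by overlapping genes were counted is not stated, and its part in these levels was not tested. Median RNA CPM of the 3 members was 4.24, 9.44 and 16.7.

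**Figure D4:**
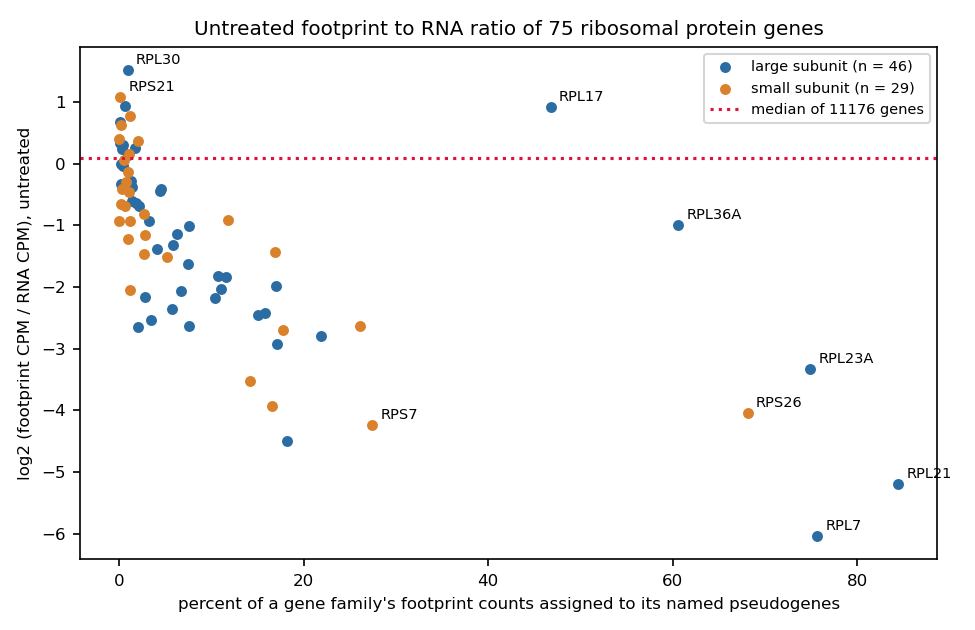
Untreated log2 ratio of footprint CPM to RNA CPM for 75 ribosomal protein genes against the percentage of a gene's footprint counts, its named pseudogenes included, that lay on those pseudogenes, with the dotted line at the median of 11176 genes (0.09). RPL7 and RPL21 lie lowest, at -6.03 and -5.20, with 75.7 and 84.5% on pseudogenes, and RPL17, with 46.8%, lies above the line.

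Changes were also set side by side for members with and without a TOP motif at the annotated start. In RNA-Seq at 2 h, 46 members with it had median changes of 0.37, -0.30 and -0.14 in replicates 1, 2 and 3, and 17 without it 0.37, -0.26 and -0.12. In footprints the medians were 0.59, 0.02 and -0.37 for 44 members with it and 0.58, -0.01 and -0.39 for 16 without. At 6 h the RNA medians were 0.34, -0.13 and -0.04 with it and 0.38, -0.09 and -0.03 without, and the footprint medians 0.07, -0.03 and -0.03 and 0.08, 0.11 and -0.13. Between 6 h and 2 h footprints had -0.42, -0.02 and 0.28 with it and -0.24, 0.23 and 0.35 without. The untreated footprint to RNA ratio had medians of -0.81 with it and -2.09 without. These sets were not matched for pseudogene counts, with which the ratio went, and members missing from the promoter table are in neither set. The differences were not tested.

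Thapsigargin had 1 library at each time and allows no test. Against the 3 untreated libraries, member medians of the RNA log2 fold change were 0.30 at 2 h and 0.46 at 6 h, beside -0.38 and -0.50 for all genes. At 2 h 2 members were at least 2-fold higher (6.7% of genes), RPL41 (1.13) and RPL11 (1.01), and 2 at least 2-fold lower (35.8%), RPS16 (-1.02) and RPL3L (-1.18). At 6 h 6 were higher (9.64%), led by RPL41 (1.30) and RPS27 (1.19), and 1 lower (38.7%), RPL3L (-1.57). RPL41, RPL11 and RPS27 also had the 3 highest ratios between the 5 libraries that stood apart, thapsigargin among them, and the other 6. Over genes that average 50 counts or more, and against untreated replicate 1 alone, member medians were 0.13 and 0.32, beside 0.39 and 0.33 for all genes. Against untreated replicate 2 they were 0.34 and 0.52, beside 0.10 and 0.03.

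In footprints 5 of 79 members were at least 2-fold higher at 2 h of thapsigargin (9.12% of genes) and 10 at 6 h (12.5%). RPS27 (3.17 and 1.63), RPSA (1.98 and 2.04) and RPL27 (1.49 and 1.52) were the 3 highest at both times. RPS27 had 212 and 73.2 footprint CPM and RPSA 319 and 333. At least 2-fold lower were 2 members at 2 h (23.2%), RPS28 and RPL3L, and 4 at 6 h (30.1%), RPS3A, RPL39, RPS28 and RPL36A. Thapsigargin RNA was also set beside replicate 1 of tunicamycin at the same time. At 2 h the member median was -0.23, with 75 of 78 lower, beside -0.01 for all genes, of which 49.2% were higher. At 6 h it was -0.05, beside -0.04 for all genes.

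Other genes of the ribosome and its assembly gave 0 calls by edgeR in the 3 tunicamycin comparisons of RNA, footprints and efficiency. They were 7 ribosomal proteins outside the naming rule, 16 tested mRNAs of other TOP genes (mostly translation factors), 36 ribosome assembly factors and 15 genes of RNA polymerase I and its factors. Of all genes, 1.5% were called at 6 h in RNA, 0.84% in footprints and 0% in efficiency. The lists' median RNA values at 6 h were 0.29, 0.29, 0.49 and 0.20, beside -0.27 for all genes. Their footprint values were 0.16, 0.13, 0.33 and 0.21, beside -0.07 for all genes.

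Of 18 regulators of TOP mRNAs 3 rose in RNA at 6 h of tunicamycin and 0 fell, while 1.5% of all genes were called. SESN2, an inhibitor of mTOR complex 1, rose from 20.2 ± 8.38 to 287 ± 66.9 CPM (SD, n = 3), by 3.83 ± 0.528 (edgeR, adjusted p = 0.00693). LARP1B, a paralog of LARP1, rose from 29.8 ± 9.17 to 113 ± 21.2 CPM, by 1.92 ± 0.272 (edgeR, adjusted p = 0.00793), and between 2 h and 6 h by 1.84 ± 0.272 (0.0156). EIF4EBP1, the repressor 4E-BP1, rose from 41.1 ± 3.28 to 89.6 ± 19.4 CPM, by 1.12 ± 0.237 (edgeR, adjusted p = 0.0478). In footprints SESN2 rose by 3.54 ± 0.596 (adjusted p = 0.0239) and was the single call among the 18 at 6 h, while 0.84% of all genes were called.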

How the data were processed

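The authors' deposited values used here are counts, whole numbers of reads for each gene entry in 22 libraries. STAR 2.5.4b, HTSeq, DESeq2 and GRCh38 are named, per the submitters' processing notes; annotation, strand setting and handling of multiply matching reads: not given in the sources used here. Members and lists were chosen with earlier results of these data known. The main test was glmQLFit and glmQLFTest of edgeR 4.0.16 (R 4.3.3) after filterByExpr (minimum count 10) and TMM scaling, over all groups of an assay, with Benjamini-Hochberg adjustment over all genes tested. Efficiency was the interaction in 1 model of both assays. DESeq2 1.42.0 was an alternative. Of the 81 members, 80 passed the filter in RNA-Seq and 79 in Ribo-Seq and in efficiency. Thapsigargin values are fitted fold changes without p-values. Ratios and within-number changes used log2(CPM + 0.05). Genes named are 21 fixed members, called members, the 3 highest and 3 lowest values for the main comparisons (mean of at least 50 counts), the 5 highest and 5 lowest ratios, and called genes of other lists; further members were named after their values were seen. Some items that this rule names are not reported here. No 2 libraries of a group agreed within sampling noise (chi-square per degree of freedom at least 37.5). Deviations of same-numbered libraries from their group mean correlated at 0.108 to 0.844 over genes in every pair. The numbers were taken to pair libraries, which no label states. In RNA-Seq replicate 1 stood apart in each group, so replicates 2 and 3 both tend to deviate away from it. The RNA-Seq correlations therefore cannot show which libraries of replicates 2 and 3 belong together. Within-number changes and the replicate block rest on the pairing as an assumption. The fits were tested on simulated counts.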

Additional observations from a re-analysis of the deposited data

How the results depend on the processing

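No member was called under DESeq2, library size alone, no low-count filter, only the groups compared, pseudogene counts added, the replicate block or the removal of any 1 library; replicates 2 and 3 alone gave 3 RNA calls at 6 h against untreated and 6 between 6 h and 2 h. The fit with the replicate block assumes the pairing by number. It gave RNA medians of -0.09, 0.00 and 0.09 at 2 h, at 6 h and between them. Its footprint medians were 0.11, 0.02 and -0.06, and its efficiency medians 0.30, 0.14 and -0.12. Library size alone moved the RNA median to -0.25 at 6 h and -0.041 between the times, and replicates 2 and 3 alone moved the 2 h efficiency median to 0.036; the cause was not tested. Leaving out 1 library at a time, medians ran in RNA from -0.29 to 0.16, -0.14 to 0.17 and -0.21 to 0.39, in footprints from -0.28 to 0.31, -0.16 to 0.18 and -0.29 to 0.34, and in efficiency from -0.11 to 0.49, -0.19 to 0.24 and -0.41 to 0.21, for 2 h, 6 h and 6 h against 2 h. Removal of tunicamycin 2 h replicate 1 gave the highest value between the times in RNA and in footprints (0.39 and 0.34), and each of these 9 medians changed sign in its range. Over all settings, 17 member medians and 15 differences between large and small subunit medians moved by at least 1 SD of the 3 within-number values, while 154 and 156 did not, and 2 of the counts of calls, those of replicates 2 and 3 alone, changed. Footprint depth limits RPS10, RPS28 and RPS3A, with under 50 counts on average.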
